A study of Mus musculus with 2 samples.

Results

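The BMP ligands described here are 6 secreted growth factors of the bone morphogenetic protein family, Bmp2, Bmp3, Bmp4, Bmp5, Bmp6 and Bmp7, taken by symbol out of 41709 genes measured in embryonic mouse lung. All 6 were found through their NCBI gene numbers, and each had more than 50 reads in at least 1 library. Polyadenylated RNA of whole lungs was sequenced from C57BL/6 embryos at stage E14.5, in 1 library of the genotype Prmt5 knockdown and 1 control library, which the series text calls wildtype. Each library was a pool of 7 lungs, so single embryos cannot be told apart. The title of the knockdown library also names Shh. Neither the way in which these genes were altered, nor the driver, nor the cells concerned are stated in the labels. With 1 library per genotype there is no spread between replicates, no p-value is given, and every interval below covers counting error only. In a bulk sample, fewer cells of a type and less RNA per cell cannot be told apart.

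BMP ligands are made as long precursors that are cut by proprotein convertases, and the carboxy-terminal parts form the dimer that leaves the cell. The dimers bring together type I and type II serine/threonine kinase receptors, which phosphorylate SMAD1, SMAD5 and SMAD9, and these enter the nucleus with SMAD4. In the branching lung, Bmp4 is known from the epithelium of the distal bud tips, where the level of BMP signalling shapes bud outgrowth and proximal to distal identity. Bmp5 is known from the lung mesenchyme and Bmp7 from the epithelium. The title of the series asks whether arginine methylation of histones by a Prmt enzyme represses a Bmp gene in lung branching.

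The ligands fall into sequence groups, which are shown through the last 60 coding bases of each transcript, because this end codes for the most conserved part of the mature ligand and shows how the members differ. The sequences are from the GENCODE M21 transcripts on GRCm38, read 5′ to 3′ on the coding strand up to and including the stop codon, and the capitals mark in-frame cysteine codons, which build the cystine knot of the family.
Bmp2: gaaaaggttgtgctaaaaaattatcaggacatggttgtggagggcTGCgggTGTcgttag
Bmp4: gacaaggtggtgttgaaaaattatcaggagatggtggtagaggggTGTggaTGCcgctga
Bmp5: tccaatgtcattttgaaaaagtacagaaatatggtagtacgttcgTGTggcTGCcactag
Bmp6: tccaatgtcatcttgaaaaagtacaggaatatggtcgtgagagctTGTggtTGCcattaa
Bmp7: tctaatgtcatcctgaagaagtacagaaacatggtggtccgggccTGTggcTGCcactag
Bmp3: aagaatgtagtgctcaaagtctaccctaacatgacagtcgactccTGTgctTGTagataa

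All 6 ends shown carry 2 cysteine codons at the same distance from the stop codon. Over the last 306 coding bases, Bmp2 and Bmp4 were 79.4% identical, and Bmp5, Bmp6 and Bmp7 were 77.8% to 80.7% identical to one another. The other 11 pairs were 51.8% to 63.8% identical, with Bmp3 the member of the most distant pairs. The longest identical run between the coding sequences of any pair was 25 bases, between Bmp6 and Bmp7. Of the 2 RefSeq-paired coding sequences of Bmp3, of 1407 and 1413 bases, the longer lacks the paired cysteine codons at its end. Counts per gene do not separate them. Where a gene had several coding sequences, the one with most cysteine codons at its end was taken. The shorter Bmp3 sequence was used for this reason, so its 2 codons were fixed by the choice.

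The libraries differed widely outside the BMP family, which bears on every value below. The knockdown library held 25829281 counted reads and the control library 22581490. Prmt5 had 2127 reads in the knockdown and 2704 in the control library, a log2 ratio of -0.43 (-0.51 to -0.35), and Shh had 109 and 1124 reads (log2 -3.44). Of 14569 genes with at least 50 reads in a library, 33.0% passed the rule of size used throughout: a ratio of at least 1.5, or its inverse, with a 95% interval that excludes 1. Prmt5, at 1.35-fold lower in the knockdown library, did not pass this rule. Of the measured genes 20.7% were higher and 12.3% lower in the knockdown library. The higher genes were 62.7% of those past the rule, or 52.3% when libraries were scaled by total counts, which moved the median of all genes by -0.11 on the log2 scale. The 9 liver parenchyma markers took 11552 CPM (reads scaled to the library total) in the knockdown and 93.2 CPM in the control library, and the 13 lung epithelium markers 486 and 1669 CPM.

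Per length of gene, Bmp4 was the most abundant of the 6 ligands in each library. Its deposited FPKM, which scales counts to gene length and library total, was 23.3 (21.95 to 24.7) in the knockdown and 32.7 (31.0 to 34.5) in the control library. The order below it differed between the libraries, as the plot of FPKM by ligand shows. In the knockdown library Bmp7 was next with 13.3 FPKM, then Bmp5 with 6.65, Bmp6 with 6.55, Bmp2 with 4.37 and Bmp3 with 1.72. In the control library Bmp5 was next with 19.3 FPKM, then Bmp7 with 8.07, Bmp3 with 5.43, Bmp2 with 2.49 and Bmp6 with 2.25. Only the neighbours Bmp5 and Bmp6 in the knockdown library, and Bmp2 and Bmp6 in the control library, had overlapping counting intervals. Bmp6 took the fourth place and Bmp3 the last in the knockdown library, against Bmp3 in the fourth place and Bmp6 in the last in the control library.

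**Figure D1:**
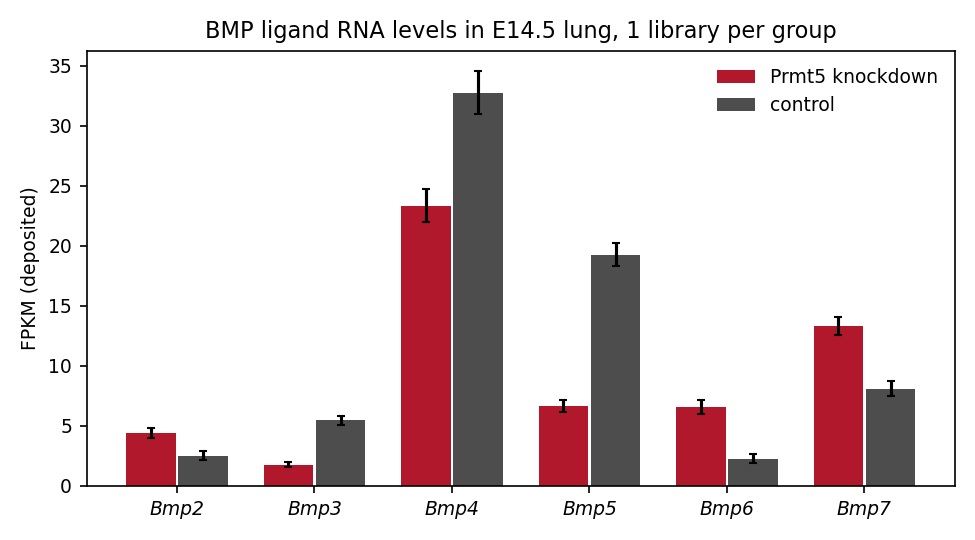
Deposited FPKM (vertical axis, linear) of the 6 BMP ligands in the Prmt5 knockdown library (red, left bar of each pair) and the control library (grey, right bar), 1 library each, with exact Poisson 95% intervals of the reads behind each bar. Bmp4 had 23.3 and 32.7 FPKM and was the tallest bar in each library.

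Of the 6 ligands, 3 were higher in the knockdown library (Bmp2, Bmp6 and Bmp7), 2 were lower (Bmp3 and Bmp5) and Bmp4 did not pass the rule. These 5 of 6 stand beside the 33.0% of all measured genes past the rule. Ratios below are knockdown over control after scaling by the trimmed mean of M values. The 3 higher and 2 lower ligands kept their direction with total counts and with DESeq2 size factors. They also kept it with totals that leave out red blood cell, liver and mitochondrial genes. Relative to the reads of the 13 lung epithelium markers, Bmp3 and Bmp5 turned to log2 values of 0.12 and 0.25. Of these markers, Krt8 (3283 reads in the knockdown and 3358 in the control library) and Krt18 (2044 and 1790) did not pass the rule. Scaling without these 2 markers was not tested.

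Bmp4 (NCBI gene 12159, GRCm38.p6 chromosome 14, 46383525 to 46390669, minus strand), the ligand of the distal bud tips, had 1096 reads in the knockdown and 1345 in the control library. Its log2 ratio of -0.38 (-0.50 to -0.26) corresponds to a level 1.30-fold lower in the knockdown library, which is below the size the rule asks for, although the interval lies below 0. Relative to the lung epithelium markers the value was 1.29. The library with this value also had 11 of those 13 markers lower, with a median log2 ratio of -2.04, and the part of that difference in the Bmp4 value was not tested.

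Bmp2 (NCBI gene 12156, chromosome 2, 133552159 to 133562896), the closest relative of Bmp4 by sequence, had 378 reads in the knockdown and 188 in the control library. It was 1.89-fold higher in the knockdown library (log2 0.92, 0.67 to 1.18). The ratio of Bmp2 was 2.47 times that of Bmp4 (exact interval 2.03 to 3.01), a comparison within libraries that does not depend on how they are scaled.

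The group of Bmp5, Bmp6 and Bmp7 held both directions. Bmp5 (NCBI gene 12160, chromosome 9, 75775365 to 75900316), known from the lung mesenchyme, had 657 reads in the knockdown and 1664 in the control library. It was 2.68-fold lower in the knockdown library (log2 -1.42, -1.56 to -1.29). Bmp6 (NCBI gene 12161, chromosome 13, 38345716 to 38500314), known in adult mouse liver as an endothelial signal that sets hepcidin, had 507 reads in the knockdown and 152 in the control library. With a 3.14-fold higher level in the knockdown library (log2 1.65, 1.39 to 1.92) it had the highest ratio of the 6 ligands. Bmp7 (NCBI gene 12162, chromosome 2, 172868012 to 172940321), a ligand of many embryonic epithelia, kidney included, had 1260 reads in the knockdown and 669 in the control library. It was 1.78-fold higher in the knockdown library (log2 0.83, 0.69 to 0.97).

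Bmp3 (NCBI gene 110075, chromosome 5, 98854415 to 98884053), a divergent member known to act against the other BMPs, had 279 reads in the knockdown and 769 in the control library. It was 2.92-fold lower in the knockdown library (log2 -1.55, -1.75 to -1.35), the lowest ratio of the 6. Its ratio lay closest to that of Bmp5, although the coding ends of Bmp3 and Bmp5 were 54.0% identical.

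**Figure D2:**
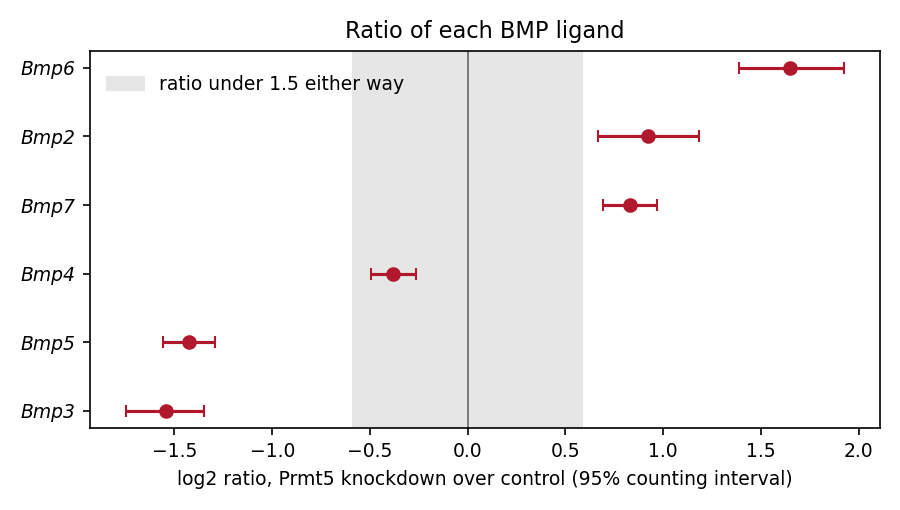
Log2 ratio of Prmt5 knockdown over control (horizontal axis) for the 6 BMP ligands, with exact 95% counting intervals (bars) and the band of ratios under 1.5 in grey. Bmp6, Bmp2 and Bmp7 lie right of the band, Bmp5 and Bmp3 left of it, and Bmp4 within it.

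Each of the 15 pairs of ligands was compared through the ratio of their ratios, and the exact 95% interval excluded 1 in 13. The 2 pairs that could not be separated by counting were Bmp2 with Bmp7 (1.07, 0.872 to 1.31) and Bmp3 with Bmp5 (0.919, 0.777 to 1.09). These intervals still allow a difference of up to 1.31 times for Bmp2 over Bmp7, so they do not show equal ratios. The widest separation was between Bmp6 and Bmp3, whose ratios differed 9.18 times (7.28 to 11.6). Within the sequence group of Bmp5, Bmp6 and Bmp7, the ratio of Bmp6 was 8.44 times that of Bmp5 (6.87 to 10.4). It was 1.77 times that of Bmp7 (1.44 to 2.19), and the ratio of Bmp7 was 4.77 times that of Bmp5 (4.18 to 5.45). Intervals are not adjusted for the 15 pairs.

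Together the 6 ligands had 55.9 FPKM in the knockdown and 70.2 FPKM in the control library. On summed reads, 4177 and 4787, the log2 ratio was -0.28 (-0.34 to -0.22), which does not pass the rule. The make-up of this pool differed more than its sum. Bmp4 made up 41.7% of the summed FPKM in the knockdown and 46.6% in the control library, and Bmp7 23.8% and 11.5%. Bmp5 made up 11.9% in the knockdown and 27.4% in the control library. Bmp6 made up 11.7% and 3.20%, Bmp2 7.82% and 3.54%, and Bmp3 3.08% and 7.74%, in the same order of libraries. Bmp4 and Bmp5 were thus the leading pair in the control library, and Bmp4 and Bmp7 in the knockdown library.

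**Figure D3:**
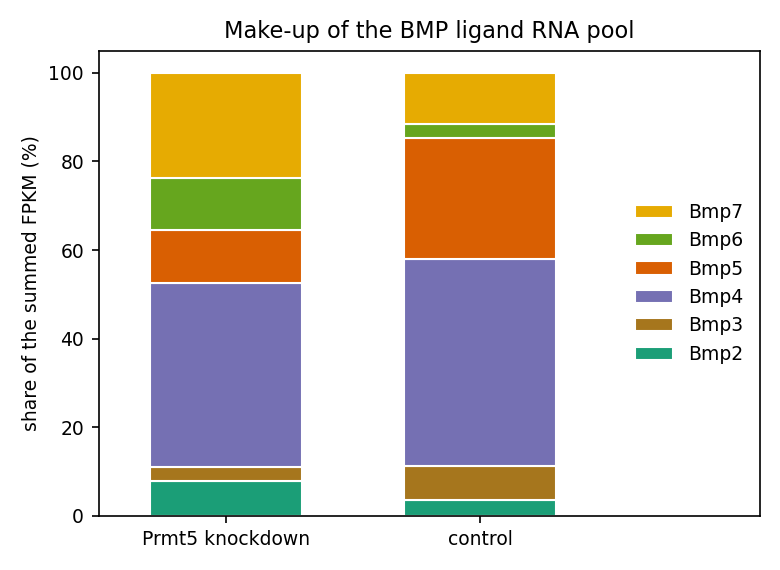
Share of each BMP ligand in the summed FPKM of the 6 ligands (vertical axis, percent) in the Prmt5 knockdown library (left bar) and the control library (right bar). Bmp7, at the top, takes 23.8% and 11.5%, and Bmp5, in orange, 11.9% and 27.4%.

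Bases upstream of the transcription start were at hand for Bmp4, Bmp5 and Bmp6, the most abundant ligand, a ligand past the rule as lower and the ligand with the highest ratio. The 250 bases before each RefSeq start on GRCm38.p6 are shown because the series asks about transcriptional repression of a Bmp gene, and the capitals mark the E-box letters CACGTG.
Bmp4, chr14:46390670-46390919, minus strand: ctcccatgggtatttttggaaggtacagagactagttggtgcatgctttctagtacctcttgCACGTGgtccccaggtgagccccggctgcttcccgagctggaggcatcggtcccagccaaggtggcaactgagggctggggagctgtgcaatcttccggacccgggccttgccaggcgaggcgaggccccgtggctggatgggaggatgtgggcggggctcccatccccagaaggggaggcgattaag
Bmp5, chr9:75775115-75775364, plus strand: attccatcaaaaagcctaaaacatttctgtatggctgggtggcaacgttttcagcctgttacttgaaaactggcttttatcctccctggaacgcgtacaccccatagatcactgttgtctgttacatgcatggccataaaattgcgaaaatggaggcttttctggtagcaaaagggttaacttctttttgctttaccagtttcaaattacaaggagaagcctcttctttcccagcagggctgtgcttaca
Bmp6, chr13:38345466-38345715, plus strand: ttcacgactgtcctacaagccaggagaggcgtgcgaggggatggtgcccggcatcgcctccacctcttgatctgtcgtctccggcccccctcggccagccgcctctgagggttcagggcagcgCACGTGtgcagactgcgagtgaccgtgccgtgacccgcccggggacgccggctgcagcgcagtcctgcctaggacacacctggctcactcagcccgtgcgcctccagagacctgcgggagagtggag

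These windows differed in base composition. The Bmp6 window held 22 CpG pairs and 68.8% G and C, the Bmp4 window 11 CpG pairs and 63.2%, and the Bmp5 window 4 CpG pairs and 42.8%. Of 32817 RefSeq promoter windows of the same length, 86.7% held as many CpG pairs as Bmp6 or fewer, 66.5% as many as Bmp4 or fewer, and 44.4% as many as Bmp5 or fewer. The letters CACGTG occurred at 188 bases before the start in Bmp4 and 127 bases before it in Bmp6, and in 6.02% of all windows. The motifs GGCGCC, GTCTGGAC and TGGGTGGTC, also searched on both strands, were not found in these 3 windows and stand in 9.59%, 0.683% and 0.225% of all windows. No histone mark or binding was measured in this series, so the matches describe the letters only.

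Among the other BMP and GDF ligands with at least 50 reads in each library, Gdf10 and Gdf6 were higher in the knockdown library and Gdf11 lower. Of 18 listed, 9 reached 50 reads. Past the rule, 7 of these were higher and 1 lower, beside 20.7% and 12.3% of all measured genes. Of the 7, Bmp10, Gdf2, Mstn, Gdf15 and Inhba reached 50 reads only in the knockdown library and so had to have more reads there, and the count is given as a description. With a minimum of 10 reads, 13 were measured, of which 8 were higher and 1 lower. Bmp10, a ligand of the developing heart muscle, had 204 reads in the knockdown library and 0 in the control. With the control set to a floor of 3 reads this is 64.1-fold higher, and the lower bound of the interval was log2 5.69. Gdf2, the circulating ligand made in liver and also called BMP9, had 238 reads and 1 read (log2 7.24, 5.32 to 13.12). Gdf10, the closest relative of Bmp3, had 2351 reads in the knockdown and 552 in the control library and was 4.01-fold higher (log2 2.01, 1.87 to 2.14). Bmp3 and Gdf10 thus lay on opposite sides. Gdf10 had 36.2 FPKM in the knockdown library, above Bmp4, and 9.73 in the control library. The stress-induced ligand Gdf15 (290 and 10 reads, log2 4.71), the muscle ligand Mstn (73 reads and 1 read, log2 5.54, 3.58 to 11.43) and Gdf6 of skeletal and joint development (195 and 66 reads, log2 1.47) were higher as well. Gdf11, which patterns the trunk axis, was the lower one with 213 reads in the knockdown and 360 in the control library (log2 -0.84). Inhbb, an activin subunit, had 104 and 72 reads and did not pass (log2 0.44).

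Of the enzymes that cut BMP precursors or antagonists, 5 were measured, with a median log2 ratio of -0.19. Among them 1 was lower and none higher, beside 12.3% and 20.7% of all measured genes. Bmp1, a metalloprotease and not a ligand, which cleaves the antagonist chordin, had 5401 reads in the knockdown and 8628 in the control library (log2 -0.76, -0.81 to -0.71). Furin, the main convertase of BMP precursors, had 3166 and 3405 reads (log2 -0.19), and Pcsk6 870 and 1039 (log2 -0.34), neither past the rule.

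The receptors that bind the ligands had 4 lower and 1 higher of 12 measured, with a median of -0.24. Over all measured genes 12.3% were lower and 20.7% higher. The type I receptors Acvrl1, of endothelium (1018 and 1893 reads, log2 -0.98), and Bmpr1b (148 and 256 reads, log2 -0.87) were lower in the knockdown library. So were the type II receptor Acvr2b (598 and 974 reads, log2 -0.79) and the co-receptor Rgma (759 and 1319 reads, log2 -0.88). The higher one was Hjv, the hemojuvelin co-receptor of liver and skeletal muscle, with 489 reads in the knockdown and 16 in the control library (log2 4.81, 4.14 to 5.67). Bmpr1a, the type I receptor of lung epithelium and mesenchyme, had 2679 and 2633 reads and did not pass (log2 -0.06), nor did Eng, an endothelial co-receptor (4024 and 3564 reads, log2 0.09). Among the 4 SMADs, Smad5 (2627 and 4180 reads, log2 -0.75) and Smad9 (248 and 358 reads, log2 -0.61) were lower, Smad9 not past the rule with DESeq2 size factors. Smad4 (log2 -0.43) and Smad1 (log2 -0.43) did not pass.

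Antagonists and extracellular modulators went both ways. Of 13 measured, 2 were higher and 2 lower, beside 20.7% and 12.3% of all measured genes. Their median of -0.00 turned to 0.03 with DESeq2 size factors. Scaled by total counts 4 of the 13 were lower (median -0.11). With totals that leave out red blood cell, liver and mitochondrial genes 4 were lower as well (median -0.09). Fst, which binds activins and BMPs, had 224 reads in the knockdown and 30 in the control library (log2 2.80, 2.26 to 3.42), and Sost, known from bone, had 93 and 20 reads (log2 2.11). Nog, which codes for noggin, a direct antagonist of several of the 6 ligands, was lower, with 93 reads in the knockdown and 217 in the control library (log2 -1.30). The abundant Fstl1 (16061 and 13234 reads, log2 0.20) and Twsg1 (4298 and 4061 reads, log2 -0.00) did not pass.

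Target genes read out BMP signalling in many tissues. Of 9 measured, 1 was higher, 2 were lower and 6 did not pass, with a median of -0.09. Over all measured genes 33.0% passed the rule, so this count does not set the targets apart. The direct targets Id3 (3408 reads in the knockdown and 3371 in the control library, log2 -0.07, -0.14 to 0.00) and Id2 (2246 and 2250 reads, log2 -0.09, -0.17 to -0.00) did not pass, nor did Id1 (1423 and 1391 reads, log2 -0.05) or the inhibitory Smad6 (1378 and 1386 reads, log2 -0.09). Id4 (439 and 760 reads, log2 -0.88) and the inhibitory Smad7 (850 and 1248 reads, log2 -0.64) were lower. Msx1, a homeobox target, was higher (59 and 22 reads, log2 1.32, 0.61 to 2.12). Over all 6 pathway lists, 52 of 67 genes were measured. Of these 11 were higher and 12 lower, beside 20.7% and 12.3% of all measured genes. Hjv, Fst, Sost and Msx1 were among the higher genes and also reached 50 reads only in the knockdown library, while no pathway gene did so only in the control library.

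**Figure D4:**
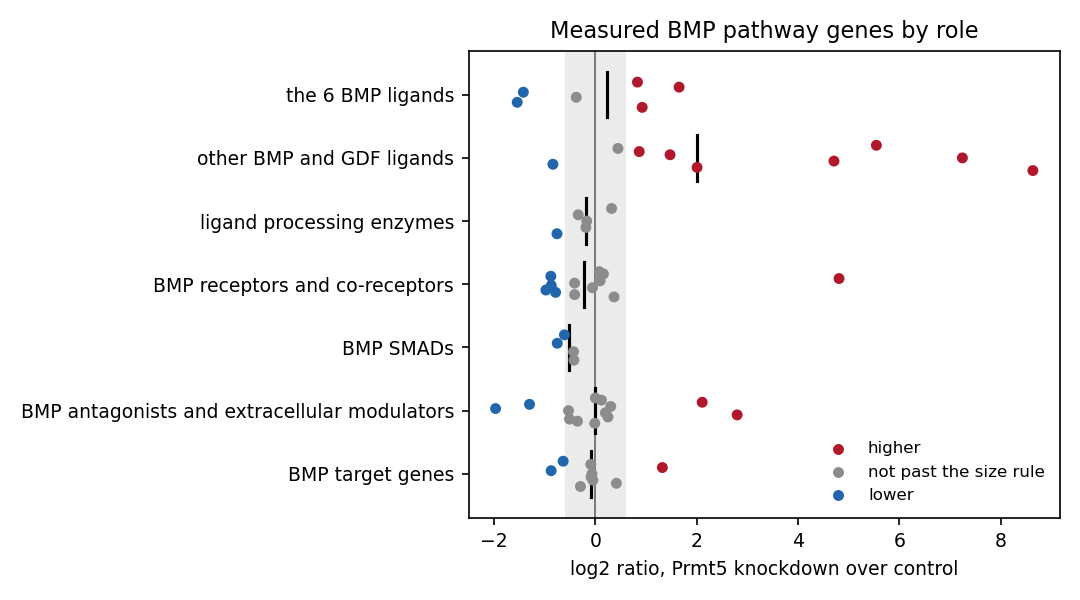
Log2 ratio of Prmt5 knockdown over control (horizontal axis) of the measured BMP pathway genes, 1 point per gene in rows by role, with a black line at each row's median and the band of ratios under 1.5 in grey. The 6 ligands stand on both sides of the band, and the target genes have their median at -0.09. The point of Bmp10, at the far right, has 0 control reads and its place depends on the prior count.

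Markers of the lung and of neighbouring tissues were set beside the ligands. The counts here and in the next paragraph stand beside 20.7% higher and 12.3% lower of all measured genes. Of 9 lung mesenchyme markers 6 were lower and none higher (median -1.17), and the best covered were Col1a1 (113582 and 84024 reads), Tbx4 (1863 and 7324) and Foxf1 (2006 and 6935). The labelled tissue was present in each library, since Sftpc of the lung epithelium had 1313 reads in the knockdown and 8880 in the control library, and Nkx2-1 had 895 and 7550. Of 5 measured smooth muscle markers 3 were lower and 1 higher (median -1.04), and of 6 endothelium markers 1 was lower and none higher (median -0.51). Of 6 mesothelium markers 5 were higher (median 1.28), and their summed level was 410 CPM in the knockdown and 241 in the control library.

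Markers of other organs were higher together with Bmp2, Bmp6 and Bmp7. All 9 liver parenchyma markers were higher (median 7.44), led in reads by Alb (105934 and 474 reads). Of 6 measured markers of liver sinusoid and stellate cells 5 were higher (median 3.58), at 164 CPM in the knockdown and 66.2 in the control library. All 10 heart muscle markers were higher, at 6499 and 225 CPM, with Nppb at 0 in the control, and all 7 skeletal muscle markers, at 886 and 25.5 CPM. Of adrenal cortex and kidney markers all 5 measured were higher, with 3949 summed reads in the knockdown and 113 in the control library, and with Cyp21a1 and Nphs1 at 0 in the control and Umod at 0 in each library. The kidney factor Pax2 had 2 reads in the knockdown and 14 in the control library. Red blood cell (5 of 6 higher), foregut and thymus (7 of 7 higher) and neural markers (5 of 6 higher) had medians of 4.68, 3.54 and 1.52. Some of these markers reached 50 reads only in the knockdown library and so had to have more reads there: 4 of the 9 of liver parenchyma, 3 of the 6 of liver sinusoid and stellate cells, 3 of the 10 of heart muscle, 2 of the 7 of skeletal muscle, 4 of the 5 of adrenal cortex and kidney, 5 of the 7 of foregut and thymus and 2 of the 6 neural ones. The part of these tissues in the higher reads of Bmp2, Bmp6, Bmp7, Bmp10 and Gdf2 was not tested.

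**Figure D5:**
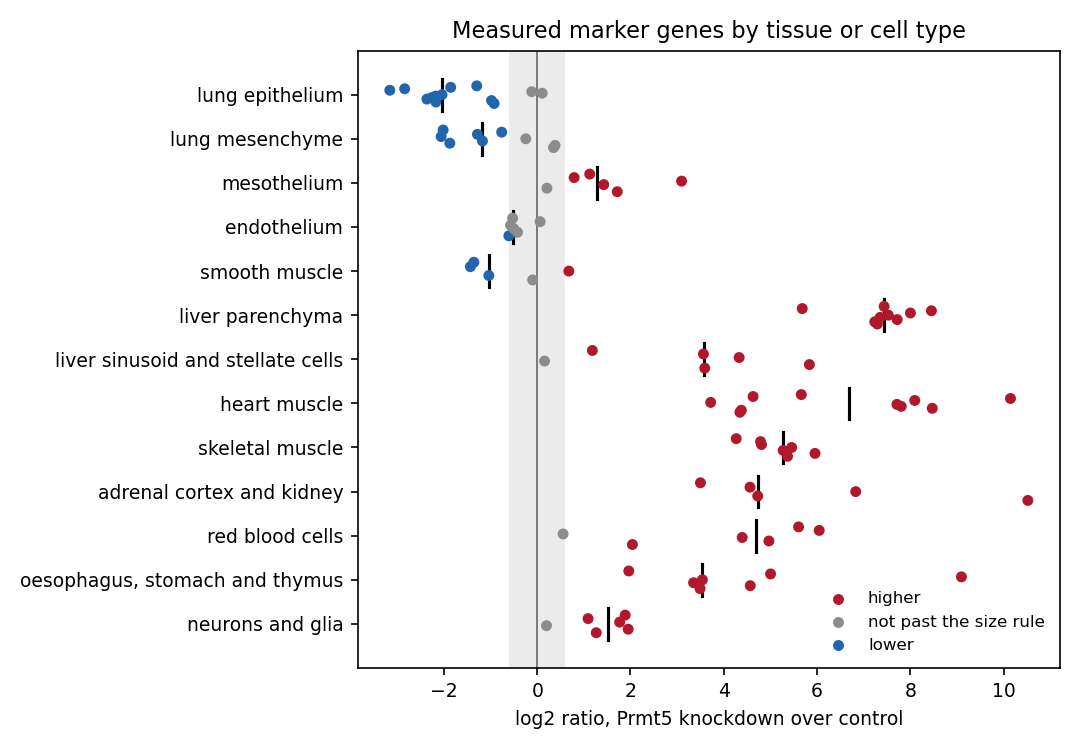
Log2 ratio of Prmt5 knockdown over control (horizontal axis) of the measured marker genes, 1 point per gene in rows by tissue or cell type, with a black line at each row's median. Lung epithelium (median -2.04) and lung mesenchyme (median -1.17) lie to the left, and the markers of liver, heart and skeletal muscle to the right. The rightmost points of the heart and foregut rows have 0 control reads, as does 1 adrenal gene, and their place depends on the prior count.

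Among 147 measured genes of the pathway and marker lists, the closest in log2 ratio to each ligand were read off over these 2 libraries, with the difference of log2 ratios as the measure. Bmp5 (-1.42) lay nearest to the smooth muscle genes Myh11 (-1.43) and Mylk (-1.36), which were also nearest to Bmp3 (-1.55). Of the 5 measured smooth muscle markers 3 were lower, while Cnn1 was higher (0.68) and Acta2, with most reads, did not pass (-0.10). Beyond these nearest genes, the antagonist gene Nog (-1.30) lay close to Bmp5. So did the lung epithelium gene Sox9 (-1.30) and the lung mesenchyme gene Tbx5 (-1.28). Bmp7 (0.83) and Bmp2 (0.92) lay nearest to the activin subunit Inhba (0.86) and the mesothelium gene Upk3b (0.79). Bmp6 (1.65) was nearest to the mesothelium gene Bnc1 (1.72) and the neural gene Prph (1.77), and Bmp4 (-0.38) to the modulator Bmper (-0.36) and the receptor Acvr2a (-0.41). With 2 libraries such closeness is a single ratio and not a shared course over conditions.

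Some reads near the ligands could belong to neighbours on the other strand, since the strand setting of the counting is not given in the sources used here. In the GENCODE annotation, exons of Bmp5 share 1878 of their 4025 bases with the antisense gene Gm26903, whose reads were not examined. Exons of Bmp6 share 224 bases with Txndc5, and exons of Bmp4 share 89 bases with Gm15217. Txndc5 had 7355 reads in the knockdown and 7224 in the control library (log2 -0.06) and Gm15217 had 10 and 5. Bmp2, Bmp3 and Bmp7 overlapped no other annotated gene.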

How the data were processed

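Per the labels' protocols, RNA was extracted with TRIZOL and libraries were made with the NEBNext Ultra kit. Build mm10 and the tools HTSeq 0.6.1, TopHat2 2.0.12 and Bowtie2 2.2.3 are listed in the submitters' processing notes. Gene annotation, strand setting and multi-mapping handling were not given in the sources used here. The authors deposited raw read counts per gene and FPKM values. In the deposited FPKM table the implied gene lengths were the same in each library within 0.001 bp for 22831 of 22831 genes with reads in each. Of 41709 entries, 40269 were matched to a symbol through RefSeq genes of GRCm38.p6.

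Counts were scaled by TMM factors, 0.963 for the knockdown and 1.04 for the control library (edgeR 4.0.16, R 4.3.3). Log2 ratios used a library-scaled prior of 0.5 counts, and 95% intervals were exact Clopper-Pearson intervals of the counts given their sum (scipy 1.17.1). Ratios of ratios were conditional odds ratios with exact intervals, FPKM intervals were exact Poisson intervals, and the floor was 3 counts over the library. PCR copies are not independent molecules, so intervals and floors cover counting error only. A gene was measured with at least 50 reads in at least 1 library. The 138 entries without an NCBI number, 0.0748% of knockdown and 0.0783% of control reads, stayed in the library sizes. The scripts were tested on simulated counts. Alternatives covered scaling (DESeq2 1.42.0 among them), FPKM, prior count, read minimum, ratio, interval and gene length.

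The members and the 6 pathway and 13 marker lists were chosen with earlier results of these data known. Of the listed genes 1 was unmatched. Named were the 6 ligands, up to 6 members of each pathway list past the rule ranked by the interval bound nearest to 1, and up to 2 with most reads that did not pass. Of each marker list up to 3 members with most reads could be named. Gdf11, Id1, Smad6, Cnn1, Krt18, Sox9, Tbx5 and the markers at or near 0 were named after their values were seen. So was Nog as a gene close to Bmp5. A few listed genes enter the list totals without being reported here by name.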

Additional observations from a re-analysis of the deposited data

How the results depend on the processing

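With 1 library per genotype, no replicate could be left out. No paired analysis was possible because each group has 1 sample and the labels give no replicate numbers. Scaling by the reads of the lung epithelium markers shifted all genes by 1.67 on the log2 scale and gave 2.59 for Bmp2, 0.12 for Bmp3, 1.29 for Bmp4, 0.25 for Bmp5, 3.32 for Bmp6 and 2.50 for Bmp7. It left 0 ligands lower, and 13944 genes higher and 120 lower in place of 3020 and 1795. With FPKM at a pseudocount of 1, which pulls low values together by construction, Bmp2 was at 0.62, Bmp3 at -1.24, Bmp6 at 1.22 and Bmp7 at 0.66. A ratio of at least 2 left 1 ligand higher (Bmp6) and 703 genes lower, and the same 2 ligands lower. DESeq2 size factors left 1 SMAD past the rule in place of 2, and a minimum of 10 reads gave 2 processing enzymes in place of 1, as more genes were measured. The SMAD that dropped out was Smad9, 1.53-fold lower in the main scaling and so close to the 1.5 of the rule. DESeq2 size factors moved the median of all genes by 0.03 on the log2 scale. Of 100 recomputed values 83 stayed within the counting interval, or within 1.5 times for counts, and 17 did not. Bmp3, Bmp4 and Bmp5 changed sign, all 3 under the epithelium marker scaling. The order of the 6 ligands was unchanged with exon lengths from the GENCODE annotation. Depth limits genes under 50 reads.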

Other observations

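Several BMP genes under 50 reads also stood apart. Hamp, the liver hormone hepcidin that BMP signalling induces in hepatocytes, had 39 reads in the knockdown and 0 in the control library. With the control set to a floor of 3 reads this is 12.3-fold higher, and the lower bound of the interval was log2 3.25. Cer1, a secreted antagonist of nodal and BMP ligands, had 4 reads in the knockdown and 49 in the control library (log2 -3.54, -5.63 to -2.25). Tll2, a relative of Bmp1, had 39 and 6 reads (log2 2.52, 1.37 to 4.15), and Gdf3 had 36 and 2 (log2 3.79, 2.13 to 7.19). These genes were named after their values were seen. Grem1, a further antagonist, had 14 and 12 reads, too few for a comparison. Gdf1 had 0 reads in each library.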
